A study of Mus musculus with 4 samples.

Results

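Cytokine signals reach the nucleus of a T cell through 2 small protein families, the Janus kinases and the STAT factors, and their transcripts were read here in naive CD4+ T cells and in cells 3 h into culture toward induced Treg (iTreg) cells. The genes are the kinases Jak1, Jak2 and Jak3 and the factors Stat2, Stat3, Stat4, Stat5a, Stat5b and Stat6. They were chosen by name, as every probe whose gene name on the array is one of these 9. The rule uses no measured value, though the family was picked with earlier results of these data known. This gave 17 probes, 6 for the 3 kinases and 11 for the 6 factors, of 56605 probes and 27144 named genes on the array. The other members of the 2 families were not analysed here.

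Each of 4 conditions was read on 1 single-colour Agilent mouse array: naive T cells of WT and of Nr4a-TKO origin, and iTreg cells of both origins after 3 h of culture. Nr4a-TKO cells carry floxed Nr4a1 and Nr4a2 alleles and are Nr4a3-/-, and the study compared them with WT cells to learn what the Nr4a nuclear receptors do in iTreg differentiation. The Cre transgene is not given in the sources used here. Both kinds of cell were Ly5.2+ and were sorted as CD4+ CD25low CD44low CD62L-high Foxp3- cells from bone marrow chimeras in Rag2-/- hosts, which make no T or B cells of their own. The Nr4a-TKO cells came from hosts that had also received WT Ly5.1 marrow, and the WT cells from hosts of WT marrow alone, so genotype and kind of chimera cannot be told apart. For iTreg culture, cells of both genotypes received plate-coated anti-CD3 at 2 µg/ml and anti-CD28 at 0.5 µg/ml, anti-IFN-γ and anti-IL-4 at 1 µg/ml each, IL-2 at 10 ng/ml and TGF-β1 at 0.2 or 0.5 ng/ml, and the labels do not say which TGF-β1 dose each culture had. The naive cells had no culture, so time, antibodies and cytokines cannot be told apart either. The methods name young adult C57BL/6J mice of both sexes, with sorting some weeks after the marrow transfer. The labels give no age for a group and do not say whether cells of several mice were pooled.

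In the textbook account of the pathway, a cytokine brings the chains of its receptor together, and the Janus kinases bound to those chains phosphorylate each other, the receptor and then a STAT factor. The phosphorylated STAT factors pair through their SH2 domains, enter the nucleus and bind DNA. In CD4+ T cells the kinases Jak1 and Jak3 serve the receptors that share the common gamma chain, among them those of IL-2, IL-4 and IL-7, while Jak2 serves the receptors of IL-12, IL-23 and IFN-γ. Stat5a and Stat5b act downstream of IL-2 and IL-7, Stat3 of IL-6 and IL-21, Stat4 of IL-12, Stat6 of IL-4, and Stat2 of the type I interferons.

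An array reads a gene through its probes, each of 60 bases, so the part of the transcript that a probe binds sets what is measured. The 4 probes below lie further from the end of the gene than another probe of it, and they are called inner probes here. They are shown because most of them read a change of another size than that other probe.
Jak2 A_52_P309376: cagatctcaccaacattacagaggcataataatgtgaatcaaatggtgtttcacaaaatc
Jak3 A_55_P2010912: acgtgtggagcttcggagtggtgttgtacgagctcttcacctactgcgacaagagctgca
Stat2 A_66_P102138: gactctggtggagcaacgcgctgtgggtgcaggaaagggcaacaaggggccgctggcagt
Stat5a A_66_P115018: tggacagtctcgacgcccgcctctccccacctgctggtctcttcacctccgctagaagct
On mm9, the build of the probe coordinates in the deposited files, these lie at chr19:29363211-29363270 (+ strand, Jak2), chr8:74210801-74210860 (+, Jak3), chr10:127719861-127720302 (+, Stat2) and chr11:100745240-100745299 (+, Stat5a). The Stat2 probe has a span of 442 bases in the genome for its 60 bases, so it lies across a splice junction, whereas the genomic span of the other 3 equals the probe length. In the transcripts named on the array, the inner probe is listed at base 1984 for Jak2 and another at 3865, at 2644 and 3777 for Stat5a, and at 1362 and 4330 for Stat2.

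Other probes read the end of the transcript. For comparison with the inner probes, the last 30 bases of a second Stat2 probe and of the brightest Stat5b probe are given with the polyadenylation signal AATAAA in capitals.
Stat2 A_55_P2059606: agtccttcgtacgtcatAATAAActtttgt
Stat5b A_55_P2031043: ttacAATAAAggcgtctccttgaaggacaa
In the Stat2 probe the signal lies close to the last base of the probe, at chr10:127729834-127729893 (+). The Stat5b probe lies at chr11:100642045-100642104 (-).

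Values are on the log2 scale after background correction and quantile normalization across the 4 arrays. A gene is represented by the probe that is brightest on average, and its other probes are given beside it. Levels are compared only between arrays and within a probe, since probes bind with different strength. No condition has a replicate, so no difference was tested. Probes printed on at least 5 spots put the SD of a difference of 2 arrays at 0.17 on the log2 scale, which covers the arrays and not the mice or cultures. A change of over 2-fold (1 on the log2 scale) in size is called here, and a count of calls is given beside the share of all genes called in the same way. All 17 probes were well above local background on the 4 arrays, none was saturated, and each was printed on 1 spot.

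The arrays as a whole were even. Between 65.0% and 67.6% of probes were well above background, and all arrays were on 1 slide and in 1 scan. All 8 markers of CD4 T cells and all 6 of naive T cells in the list used were well above background on each array, and the summed level of the naive T list was between 13.56 and 13.58 (log2) on the naive arrays and between 10.99 and 11.23 at 3 h. All 6 activation genes rose over 2-fold in both genotypes, as did 8.57% of all genes in WT and 8.01% in Nr4a-TKO. Of markers of cells that the sort should remove, all 8 B cell genes, both CD8 genes, 4 or 5 of 6 myeloid genes, 2 of 3 erythroid genes and 1 of 3 NK genes were well above background on an array, and Adgre1, Hbb-b1 and Ncr1 were not on any. The targeted genes did not all follow the genotype labels. Nr4a1, the value of its only probe being 7.05 on WT naive, 8.39 on Nr4a-TKO naive, 11.34 on WT at 3 h and 11.82 on Nr4a-TKO at 3 h, was higher on both arrays labelled Nr4a-TKO. Both Nr4a2 probes were also higher there at 3 h, by 1.37 and 1.38, and of the 3 Nr4a3 probes at 3 h, 2 were lower on the Nr4a-TKO array, by values of -1.86 and -1.47, and the last was higher by 0.19. Whether those probes lie inside the deleted exons was not tested, and every direction between genotypes given here is that of the library labels.

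From naive T to iTreg at 3 h, Jak2 rose over 4-fold in both genotypes, Stat4 fell 3.33-fold and Jak1 fell 2.88-fold in WT, and Jak1 fell 2.04-fold in Nr4a-TKO. By the gene values, 1 of the 9 genes rose in WT and 2 fell, against 8.57% of 19589 genes tested that rose and 9.01% that fell. In Nr4a-TKO, 1 rose and 1 fell, against 8.01% and 8.42% of 20001 genes. The members' shares were 11.1% higher and 22.2% lower in WT, and 11.1% in each direction in Nr4a-TKO, where 1 gene of the 9 makes up 11.1%, so counts of 1 or 2 are not read as a result about the family. The other gene values lay within 2-fold. In WT, 7 of the 9 changed by more than 2 SD of the repeated spots (0.346 on the log2 scale), as did 7 in Nr4a-TKO, against 55.2% and 54.8% of all genes. The median change of the 9 genes was -0.70 in WT and -0.39 in Nr4a-TKO, where the medians over all genes were -0.06 and -0.02.

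**Figure D1:**
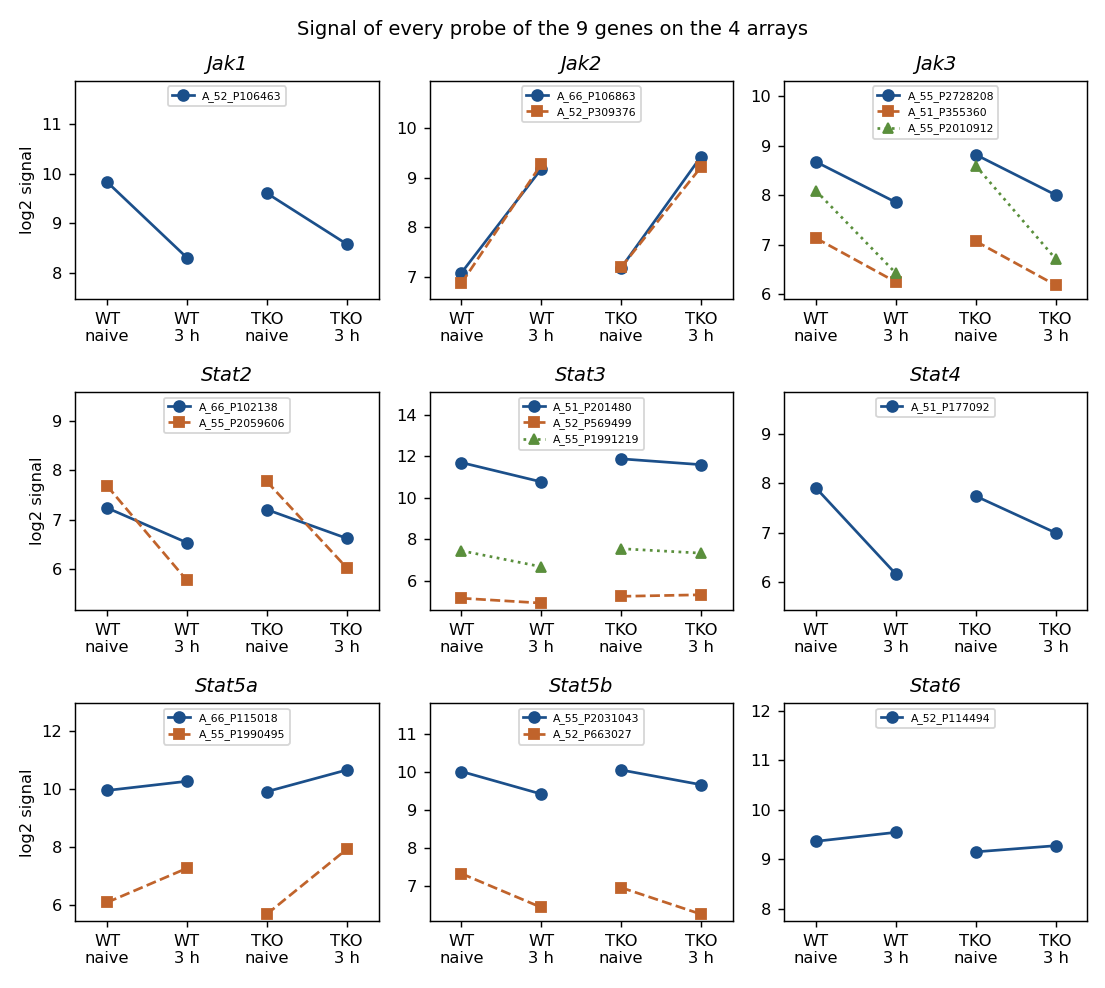
Log2 signal (vertical axes, which start at different values) of each of the 17 probes on the 4 arrays, with 1 panel per gene and lines joining the naive and 3 h arrays of a genotype. The legend names the probes, the first of them giving the gene value. Both Jak2 probes rise from about 7 to about 9 in both genotypes, whereas the Stat4 line is steeper in WT than in Nr4a-TKO.

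Jak2 is the kinase of the IL-12, IL-23 and IFN-γ receptors and of many hormone receptors. Its brightest probe read 7.09 on WT naive, 7.19 on Nr4a-TKO naive, 9.18 on WT at 3 h and 9.43 on Nr4a-TKO at 3 h. Both 3 h arrays were thus above both naive arrays, and the rise was 4.28-fold in WT and 4.73-fold in Nr4a-TKO. In WT 98.4% of the genes tested had a lower change than Jak2, and in Nr4a-TKO 99.1% did. The inner probe, shown above, read 6.88, 7.20, 9.28 and 9.22 on the same arrays. Its rise was 2.40 on the log2 scale in WT and 2.02 in Nr4a-TKO, so the probes of Jak2 differ in which genotype had the larger rise. Jak2 was the only 1 of the 9 genes whose gene value rose over 2-fold.

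Jak1, the kinase that gamma chain, gp130 and interferon receptors have in common, has 1 probe. It read 9.83 on WT naive, 9.61 on Nr4a-TKO naive, 8.30 on WT at 3 h and 8.58 on Nr4a-TKO at 3 h. The naive arrays were the high ones in both genotypes. The change was -1.53 in WT and -1.03 in Nr4a-TKO, the latter just past 2-fold. The Nr4a-TKO call was lost with the deposited values (-0.85), scaling to the 75th percentile (-0.86), an offset of 50 (-0.94) and no background correction (-0.997). In WT the change stayed past 2-fold, at -1.30 or lower, under the 8 alternative ways of computing the values.

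Jak3 binds the common gamma chain and is found mainly in blood cells. Its brightest probe read 8.67 on WT naive, 8.82 on Nr4a-TKO naive, 7.86 on WT at 3 h and 8.01 on Nr4a-TKO at 3 h, a change of -0.82 in WT and -0.81 in Nr4a-TKO that did not pass 2-fold. The change of a second probe, A_51_P355360, was -0.88 in the WT cells and -0.89 in the Nr4a-TKO cells. The inner probe lies between these probes on the chromosome, so the brightest probe is further still from the end of the gene. This inner probe fell over 2-fold in both genotypes, from 8.09 to 6.43 in WT and from 8.60 to 6.72 in Nr4a-TKO. Jak3 was thus lower at 3 h by all 3 probes, and the size of the change, between -1.66 and -0.82 in WT, depended on the probe.

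Stat4, the factor that IL-12 activates on the way to Th1 cells, had the lowest change of the 9 genes in WT. Its only probe read 7.90 on WT naive, 7.74 on Nr4a-TKO naive, 6.17 on WT at 3 h and 6.998 on Nr4a-TKO at 3 h. The naive arrays lay close together and the 3 h arrays apart, with WT the lower. The change was -1.74 in WT, lower than in all but 3.38% of genes, and -0.74 in Nr4a-TKO, which did not pass 2-fold. Under the 8 alternatives the WT change of Stat4 stayed between -1.77 and -1.25 and that in Nr4a-TKO between -0.74 and -0.57.

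Stat3, which IL-6 and IL-21 activate and which Th17 cells need, has 3 probes. The brightest, A_51_P201480, read 11.69 on WT naive, 11.87 on Nr4a-TKO naive, 10.76 on WT at 3 h and 11.59 on Nr4a-TKO at 3 h. The WT 3 h array was the lowest and the other 3 lay within 0.28 of each other. The change was -0.93 in WT, or 1.91-fold, and -0.28 in Nr4a-TKO. A second probe, A_55_P1991219, gave -0.77 and -0.21. The third and dimmest probe, A_52_P569499, gave -0.23 in WT and 0.08 in Nr4a-TKO.

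Stat2, the interferon factor that binds DNA together with Irf9, was lower at 3 h by both probes but by different amounts. The inner probe read 7.24 on WT naive, 7.20 on Nr4a-TKO naive, 6.54 on WT at 3 h and 6.62 on Nr4a-TKO at 3 h. The probe with the polyadenylation signal read 7.68, 7.77, 5.77 and 6.03 on the same arrays. Both placed the naive arrays above the 3 h arrays in both genotypes. The change was -0.70 in WT and -0.58 in Nr4a-TKO by the inner probe, under 2-fold, and -1.91 and -1.74 by the end probe, over 3-fold. The mean levels of the 2 probes over the arrays are close, so whether Stat2 is called depends on the choice of probe.

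Stat5a and Stat5b are closely related factors that IL-2 activates in T cells, and their values differed in direction. Stat5a by its inner probe read 9.94 on WT naive, 9.90 on Nr4a-TKO naive, 10.26 on WT at 3 h and 10.65 on Nr4a-TKO at 3 h. Both 3 h arrays were above both naive arrays, and the change was 0.31 in WT and 0.74 in Nr4a-TKO, under 2-fold. Its second probe, A_55_P1990495, which binds nearer to the 3′ end, read 6.07, 5.67, 7.25 and 7.91 and rose 2.27-fold in WT and 4.73-fold in Nr4a-TKO. Stat5b by its brightest probe read 10.01 on WT naive, 10.05 on Nr4a-TKO naive, 9.42 on WT at 3 h and 9.66 on Nr4a-TKO at 3 h. Its change was -0.60 in WT and -0.39 in Nr4a-TKO. For its second probe, A_52_P663027, the changes were -0.89 and -0.70. In both genotypes all probes of Stat5a were thus higher and all probes of Stat5b lower at 3 h, though only the second Stat5a probe passed 2-fold.

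Stat6, which IL-4 activates on the way to Th2 cells, showed the least change of the 9 genes after quantile normalization. Its probe read 9.36 on WT naive, 9.15 on Nr4a-TKO naive, 9.54 on WT at 3 h and 9.27 on Nr4a-TKO at 3 h. The change of 0.18 in WT and 0.12 in Nr4a-TKO was about the SD of repeated spots or less. Of all genes tested, 74.9% changed by more than this in WT. With the deposited values the change of Stat6 was 0.40 in WT and 0.32 in Nr4a-TKO, and it was no longer the least of the 9 genes.

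Counted by probe, 3 of the 17 rose over 2-fold in WT and 4 fell, against 9.26% and 8.48% of 39343 probes tested. In Nr4a-TKO 3 rose and 3 fell, against 8.23% and 7.93% of 40242 probes. The risen probes were the pair of Jak2 and the second Stat5a probe. Probes of 1 gene share its RNA and are not separate evidence. The difference between the highest and lowest change of a gene's probes in WT was 1.21 for Stat2, 0.87 for Stat5a, 0.84 for Jak3, 0.70 for Stat3, 0.30 for Jak2 and 0.29 for Stat5b.

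**Figure D2:**
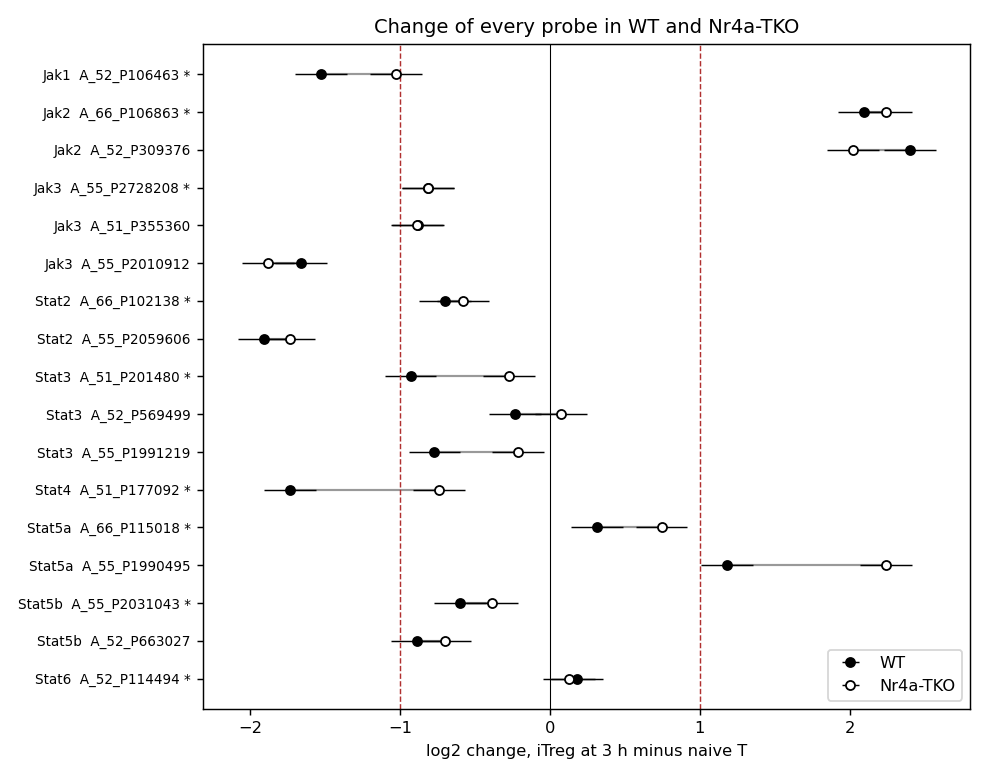
Log2 difference of the 3 h array minus the naive array (horizontal axis) of every probe in WT (filled circles) and Nr4a-TKO (open circles), with bars of 1 SD from repeated spots (0.17), grey lines joining the genotypes and dashed lines at 2-fold. An asterisk marks the probe that gives the gene value. The Jak2 probes lie right of 2 in both genotypes, and the probes of Stat2, Stat5a and Jak3 lie far apart from other probes of the same gene.

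**Figure D3:**
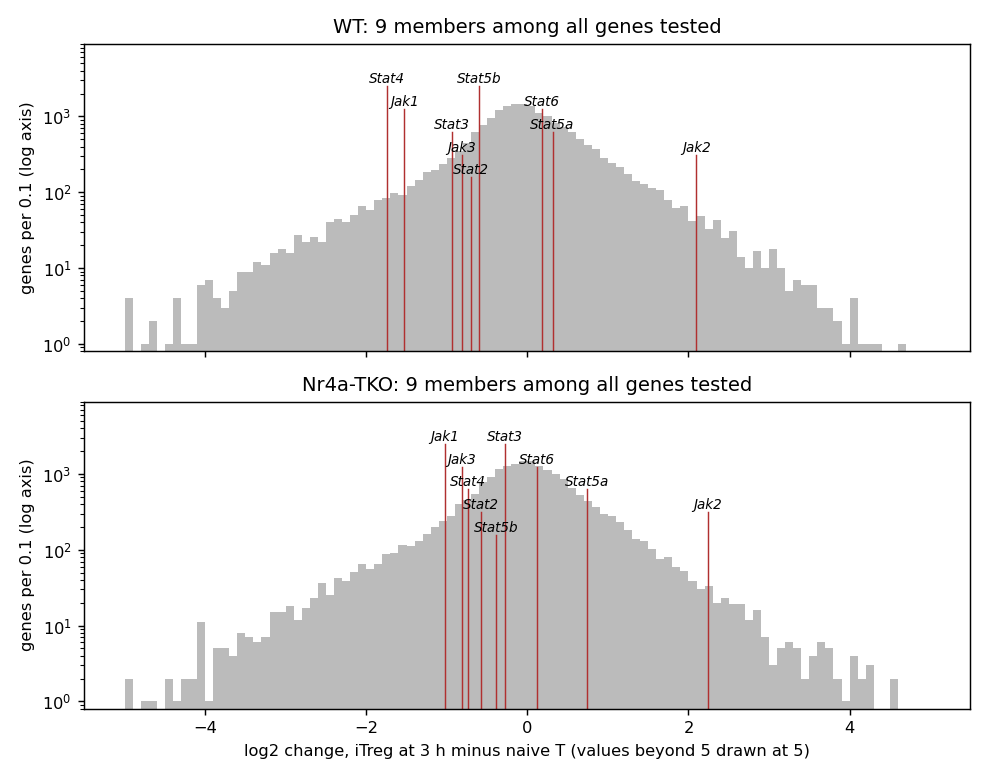
Number of genes (log axis) by log2 difference of the 3 h minus the naive array, in steps of 0.1, for WT (top) and Nr4a-TKO (bottom), with the 9 genes marked by red lines. Jak2 stands at 2.10 in WT and 2.24 in Nr4a-TKO, near the right end of each distribution, and Stat4 moves from -1.74 in WT to -0.74 in Nr4a-TKO.

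In naive cells the genotypes differed little in these genes. The difference of Nr4a-TKO minus WT ranged from -0.23 (Jak1) to 0.18 (Stat3), with 4 genes above 0 and 5 below. None passed 2-fold, against 1.9% of 19497 genes higher and 1.63% lower, and 0 of the 9 lay beyond 2 SD of the repeated spots, against 24.9% of all genes. By single probes, Jak3 A_55_P2010912 was higher in Nr4a-TKO by 0.51, Jak2 A_52_P309376 by 0.32, and Stat5a A_55_P1990495 and Stat5b A_52_P663027 differed by -0.41 and -0.37.

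At 3 h the largest differences between the genotypes were those of Stat3, Stat4 and Stat5a. Stat3 was 1.78-fold higher and Stat4 1.78-fold higher on the Nr4a-TKO array than on the WT array, a difference of 0.83 on the log2 scale for each, and 5.24% and 5.27% of genes differed by more in size. Stat5a differed by 0.39. These 3 of the 9 lay beyond 2 SD of the repeated spots, against 24.6% of all genes, and none passed 2-fold, against 1.77% of 19821 genes higher and 1.91% lower. With 9 genes, the count of 3 is not read as a result about the family. The other differences were 0.28 for Jak1, 0.25 for Jak2, 0.25 for Stat5b, 0.15 for Jak3, 0.09 for Stat2 and -0.27 for Stat6. By gene value 8 of the 9 were thus above 0, with a median of 0.25, where 50.4% of all genes were above 0 and their median was 0.003. By probe 13 of the 17 were above 0. All 3 Stat3 probes were higher on the Nr4a-TKO array, by 0.83, 0.66 and 0.40. The second Stat5a probe was higher there by 0.65, and the second Stat5b probe, unlike the first, was lower, at -0.18. Also lower there were Jak2 A_52_P309376, at -0.06, and Jak3 A_51_P355360, at -0.06, unlike the brightest probes of these genes.

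Markers of B cells moved with the same comparison. All 8 were above 0 at 3 h in Nr4a-TKO minus WT, with a median of 0.62 and 3 over 2-fold higher, as were 1.77% of all genes, H2-Ab1 being the highest at 1.38. The differences of Ms4a1 (0.07), Pax5 (0.11) and Cd22 (0.15) were under the SD of repeated spots. In naive cells 6 of 8 were above 0. The summed level of the B cell list was 11.84 on WT naive, 11.99 on Nr4a-TKO naive, 11.49 on WT at 3 h and 11.92 on Nr4a-TKO at 3 h (log2). Cd22 alone, the brightest of the list, read 11.26, 11.21, 10.94 and 11.09 on the same arrays. Of the CD4 T list, 7 of 8 were below 0 at 3 h, with a summed level of 14.44 in WT and 14.05 in Nr4a-TKO. The part of either in the differences of Stat3, Stat4 and Stat5a was not tested, and in bulk RNA fewer cells of a type and less RNA per cell cannot be told apart.

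**Figure D4:**
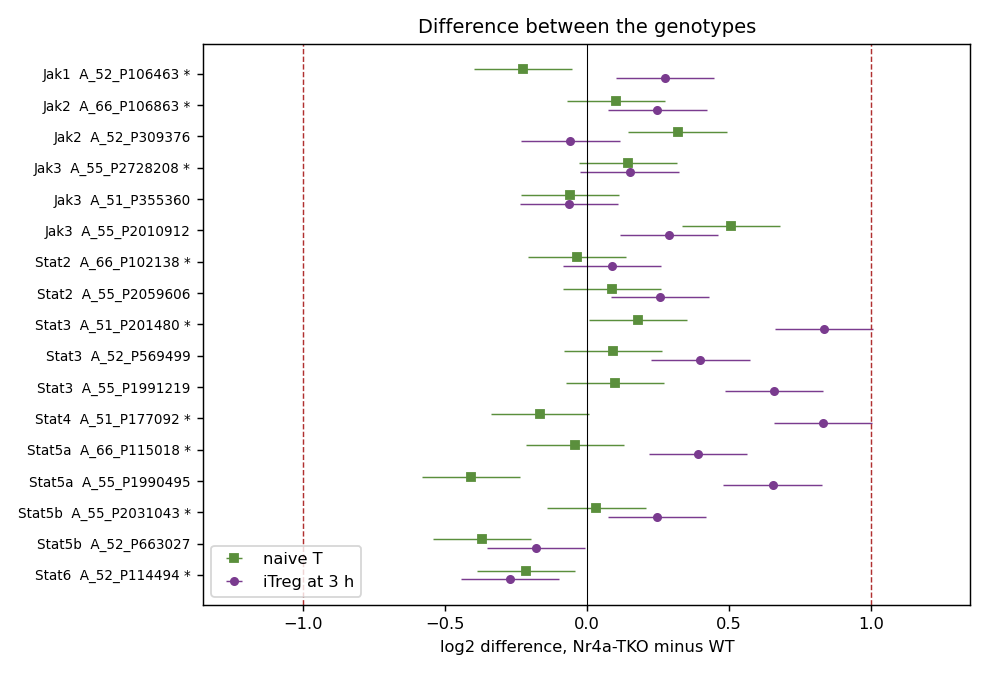
Log2 difference of Nr4a-TKO minus WT (horizontal axis) for every probe in naive T (green squares) and in iTreg at 3 h (purple circles), with bars of 1 SD from repeated spots (0.17) and dashed lines at 2-fold. An asterisk marks the probe that gives the gene value. The naive values of the 9 genes lie between -0.23 and 0.18, and at 3 h Stat3 and Stat4 lie at 0.83.

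The change over 3 h was set against that of the other genotype gene by gene. The change in Nr4a-TKO minus that in WT was 1.00 for Stat4 (0.996, or 1.99-fold), 0.66 for Stat3, 0.50 for Jak1, 0.43 for Stat5a, 0.21 for Stat5b, 0.15 for Jak2, 0.12 for Stat2, 0.00 for Jak3 (0.0044) and -0.06 for Stat6. No gene value passed 2-fold, against 2.4% of 18789 genes higher and 2.42% lower, and Stat4 lay just under it. For Stat4 97.6% of genes had a lower value. The second Stat5a probe, at 1.06, was the only 1 of the 17 probes past 2-fold. By gene value 8 of the 9 were above 0, and 13 of the 17 probes were, beside 51.9% of all genes. The signs of Jak2 and Jak3 depended on how the values were made. Over the ways tried, Jak2 ran from -0.12 to 0.16 and Jak3 from -0.22 to 0.02. This quantity rests on all 4 arrays, each without a replicate.

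Stat5b, Stat5a and Stat3 are neighbours on chromosome 11, in that order and with no other gene between them in the RefSeq table of GRCm38.p6. In the probe coordinates on mm9, Stat5a is on the + strand and both of the others on the - strand, so Stat5a and Stat3 are transcribed toward each other. The second Stat5a probe (chr11:100746373-100746432) and the dimmest Stat3 probe (chr11:100746462-100746521) are 29 bases apart on opposite strands. In WT the second Stat5a probe rose by 1.18 on the log2 scale while the Stat3 probe beside it changed by -0.23, and in Nr4a-TKO the values were 2.24 and 0.08. In WT the neighbouring probes thus differed in direction.

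The promoters of the 9 genes were read for the sites that STAT factors bind. RefSeq windows of GRCm38.p6, from 250 bases before to 50 bases after a start site, were found for all 9 genes, 12 windows in all. The letters TTCNNNGAA, the textbook site of most STAT pairs, which reads the same on both strands, were in 0 of these 12 and in 8.30% of 32851 windows of all genes, which says only that these letters are not in these windows. The core of the interferon-stimulated response element, GAAA followed by any 2 bases and GAAA, occurs in sites of the Stat2 and Irf9 complex and was searched on both strands after the values had been seen. It was in 2 of the 12 windows, those of Stat2 and of Stat4, and in 3.44% of all windows. Both are printed in lower case, each with 20 bases on either side and with the match in capitals. By gene value Stat2 and Stat4 were lower at 3 h, as were Jak1, Jak3, Stat3 and Stat5b, whose windows lack the match. Whether the match bears on these changes was not tested.
Stat2: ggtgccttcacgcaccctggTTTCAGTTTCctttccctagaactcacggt
Stat4: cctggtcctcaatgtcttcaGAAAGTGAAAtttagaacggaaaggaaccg
The Stat2 stretch is chr10:128270256-128270305 (+), with the match on the opposite strand and 222 bases before the start, and the Stat4 stretch is chr1:52008123-52008172 (+), with the match 97 bases before the start. A match of letters is a description and does not show that a factor binds there.

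Irf9 and the genes that the Stat2 and Irf9 complex is known to switch on were low at 3 h along with Stat2. Of 9 listed genes, 7 fell over 2-fold in WT and 7 in Nr4a-TKO, with none higher, and the median change was -1.79 and -1.88. Of all genes, 9.01% fell in WT and 8.42% in Nr4a-TKO, and the medians were -0.06 and -0.02. Irf9 itself, the DNA-binding partner, read 8.74 on WT naive, 8.62 on Nr4a-TKO naive, 6.66 on WT at 3 h and 6.51 on Nr4a-TKO at 3 h, a fall of 4.23-fold in WT and 4.32-fold in Nr4a-TKO. Ifit3, an interferon-induced RNA-binding protein, was at least 15.3-fold lower at 3 h in WT, since it was not well above background there, and Irf7, which amplifies the interferon response, was 6.41-fold lower. The highest values in WT were those of Mx1 at 0.64, Isg15 at -0.63 and Usp18 at -1.05, the last a fall of 2.07-fold. Between the genotypes at 3 h, 0 of the 7 that could be compared passed 2-fold, against 1.77% of all genes higher and 1.91% lower.

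By their brightest probes, the listed cytokine receptor chains were lower at 3 h or changed by less than 2-fold. Of 19 chains measured in WT, 0 rose over 2-fold and 9 fell, with a median of -0.57, and in Nr4a-TKO 0 of 20 rose and 8 fell, with a median of -0.67. The shares over all genes were 8.57% risen and 9.01% fallen in WT and 8.01% and 8.42% in Nr4a-TKO, with medians of -0.06 and -0.02. Il7r, the chain that binds IL-7 and that Jak1 serves, fell 8.11-fold in WT and 6.79-fold in Nr4a-TKO. Il6ra, the IL-6 receptor upstream of Stat3, fell 5.48-fold and 4.47-fold. Ifngr1, a chain of the IFN-γ receptor that Jak1 serves, fell 3.80-fold and 2.08-fold. The highest WT changes were those of Il12rb2 (the IL-12 receptor chain that recruits Stat4) at 0.81, Il9r at 0.54 and Il2rb at 0.49, none past 2-fold. Il2ra, the chain that gives the IL-2 receptor its high affinity, depended on the probe. Its brightest probe gave changes of 0.30 (WT) and 0.42 (Nr4a-TKO), while by its other probe Il2ra rose by 4.94 and 5.37 on the log2 scale. The brightest Il15ra probe changed by 0.05 in WT, but the highest change over the 3 probes of Il15ra was 1.85 in WT and 0.98 in Nr4a-TKO. With the mean of all probes, 2 chains rose and 9 fell in WT, and 1 rose and 6 fell in Nr4a-TKO. With that setting 8.17% of all genes rose and 8.07% fell in WT, and 7.23% and 7.73% in Nr4a-TKO. At 3 h 1 chain of 19 was over 2-fold lower in Nr4a-TKO than in WT, against 1.91% of all genes, and this was Il6st, the shared gp130 chain of IL-6 family receptors, which was named after its value was seen and differed by -1.11.

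Of the inhibitors and phosphatases of the pathway, 3 of 17 rose in WT and 1 fell, and in Nr4a-TKO 2 rose and 2 fell. Over all genes 8.57% rose and 9.01% fell in WT, and 8.01% and 8.42% in Nr4a-TKO. The falls of 1 and 2 genes are near these shares. The list's median was 0.54 in WT and 0.27 in Nr4a-TKO, beside -0.06 and -0.02 for all genes. Cish, which Stat5 switches on and which damps its signal, rose 8.38-fold in WT and 17.7-fold in Nr4a-TKO. Sh2b3, an adaptor that restrains Jak2, rose 3.83-fold and 2.74-fold. Socs6 rose 3.25-fold in WT, where the change over its 3 probes ran from 0.45 to 1.70, and its change in Nr4a-TKO was 0.99. Socs3, the inhibitor of Jak kinases at gp130 that Stat3 switches on, fell 18.8-fold in WT and 7.66-fold in Nr4a-TKO, reading 8.90 on WT naive, 8.27 on Nr4a-TKO naive, 4.67 on WT at 3 h and 5.33 on Nr4a-TKO at 3 h. The next lowest in WT were Pias1 at -0.89 and Ptpn1 at -0.49. The change of Socs3 differed between the genotypes by 1.30 and that of Cish by 1.08, both lying higher in Nr4a-TKO.

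Genes known to be induced by Stat5 did not move one way. Of 10 measured in WT, 2 rose and 2 fell, with a median of 0.34, and of 9 in Nr4a-TKO 2 rose and 2 fell, with a median of 0.18. Of all genes 8.57% rose and 9.01% fell in WT, and 8.01% and 8.42% in Nr4a-TKO, with medians of -0.06 and -0.02. Besides Cish, the risen gene was Pim1, a survival kinase, at 4.10-fold in WT and 4.30-fold in Nr4a-TKO. The third highest was Socs2 at 0.62 in WT. The lowest were Socs3, Osm at -1.45 (a gp130 cytokine that fell 2.73-fold) and Bcl2 at -0.64. Il2ra, whose probes disagree as above, is in this list too, and with the mean of all probes 3 rose and 1 fell in each genotype, against 8.17% and 8.07% of all genes in WT and 7.23% and 7.73% in Nr4a-TKO. Several of these genes are also in the list of inhibitors or of cytokines, so the lists are not separate.

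Of the cytokines that feed the pathway, 7 of 14 could be compared in WT, of which 3 rose and 1 fell, and 8 in Nr4a-TKO, of which 3 rose and 1 fell. Of all genes 8.57% rose and 9.01% fell in WT, and 8.01% and 8.42% in Nr4a-TKO. The list's median was -0.04 in WT and 0.64 in Nr4a-TKO, beside -0.06 and -0.02 for all genes. Il2, the growth factor upstream of Stat5, was at least 10.3-fold higher at 3 h in WT. Lif was at least 4.66-fold higher and Il21, which signals through Stat3, at least 2.31-fold higher. The other Il21 probe gave 0.38 and the other Osm probe -0.32, so both calls rest on the brightest probe, and with the mean of all probes 2 cytokines rose and 0 fell in WT, against 8.17% and 8.07% of all genes. The other named values in WT were -1.45 for Osm, -0.32 for Il3 and -0.14 for Il27. At 3 h 5 of 8 cytokines were over 2-fold higher in Nr4a-TKO than in WT and 0 were lower. The list's median was 1.18, beside 0.003 for all genes, of which 1.77% were higher and 1.91% lower. The higher ones were Il2, Il3, Il21, Ifng and Lif, of which Il2, Il21 and Lif were well above background on both 3 h arrays. Il3 and Ifng were not well above background on WT at 3 h and took the floor of 3.43. Il3 and Ifng thus entered this count and median only through the Nr4a-TKO array, where they are high. They read 4.71 and 4.58 on Nr4a-TKO at 3 h, so both differences are lower bounds from dim probes. Il21 was already higher in Nr4a-TKO in naive cells, by at least 1.899.

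**Figure D5:**
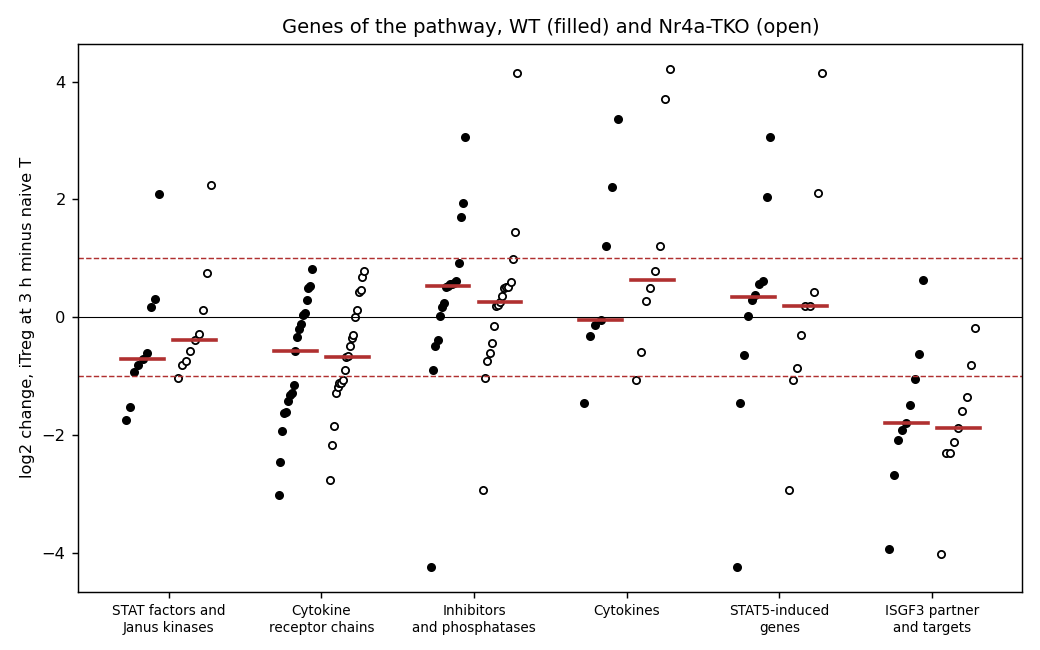
Log2 difference of the 3 h array minus the naive array (vertical axis) of the 9 genes and of 5 lists of genes of the same pathway, in WT (filled) and Nr4a-TKO (open), 1 point per gene, with red bars at the medians and dashed lines at 2-fold. Genes of the Stat2 and Irf9 list lie lowest, with medians of -1.79 and -1.88, and no receptor chain lies above 1 by its brightest probe.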

How the data were processed

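Total RNA of 4 samples, 1 per condition, was labelled with Cy3 and hybridised to Agilent arrays of mouse genes. The authors deposited the scanner output of each array, made with Agilent Feature Extraction 11.5.1.1 per the labels, from which the mean intensity and the median local background intensity of each spot were used. The deposited value table is on the log2 scale. The authors' methods name RMA, but its values equal the logarithm of the processed signal less the array's 75th percentile.

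The steps of RMA were followed with limma 3.58.1 in R 4.3.3: normexp background correction with an offset of 0, quantile normalization over 4 arrays, log2 and the mean over spots of a probe. Control spots and between 115 and 160 spots per array with an outlier flag were left out. Probes that were not well above background took a floor per array, the dimmest signal among its probes well above background (3.45 for WT naive, 3.37 for Nr4a-TKO naive, 3.43 for WT at 3 h and 3.07 for Nr4a-TKO at 3 h), and differences needed a probe well above background on 1 or both arrays. Of 56605 probes, 41700 carry a current symbol, 520 were named by a synonym and 1518 by their transcript in RefSeq (GRCm38.p6). A further 2574 have only the name given by the manufacturer and 10293 have no gene name. RefSeq of this build was also used for the promoter windows and the gene order, and not for the probe coordinates.

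With 1 array per group there is no p-value. Precision came from probes printed on 5 or more spots, between 285 and 287 per array. Python 3.11.15, pandas 2.3.3, numpy 2.4.6 and matplotlib 3.10.9 were used, and the counting of genes past 2-fold was tested on simulated data. The 9 genes, the lists and the tests were chosen with earlier results of these data known. All probes of the 9 genes are given, and from each list the 3 highest and 3 lowest WT changes. The alternatives were other background corrections and scalings, the mean of all probes, the brightest probe of a RefSeq mRNA, the deposited values, other filters on dim probes and thresholds of 1.5-fold and 3-fold.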

Additional observations from a re-analysis of the deposited data

Results flagged for a closer look

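Jak1 differed between the genotypes in opposite directions at the 2 stages, each by more than the SD of repeated spots. Nr4a-TKO minus WT was -0.23 in naive T and 0.28 in iTreg at 3 h. With 1 array per condition, whether the stages differ was not tested.

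The second Stat5a probe, A_55_P1990495, also differed in opposite directions, with -0.41 in naive T and 0.65 in iTreg at 3 h. The inner Stat5a probe gave -0.04 and 0.39. This difference was not tested either.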

How the results depend on the processing

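The 5 differences of the 9 genes were recomputed under 8 other ways of making the values, which gave 360 values. Of these, 318 moved by less than the SD of repeated spots, 42 moved by more and 0 changed the sign of a call. Differences under 2-fold did change sign in places, among them the change in Nr4a-TKO minus that in WT for Jak2 and Jak3. The counts past 2-fold and the medians were also recomputed with thresholds of 1.5-fold and 3-fold, and 104 of 120 kept within 1.5 times or the same spread. The exceptions follow. In WT, 2 genes fell over 2-fold. This became 4 with the mean of all probes, 6 at 1.5-fold and 1 at 3-fold. In Nr4a-TKO 1 gene rose, which became 2 with the mean of all probes and 2 at 1.5-fold. In Nr4a-TKO 1 gene fell, Jak1. This became 0 with the deposited values, 0 with no background correction, 0 with an offset of 50, 0 with scaling to the 75th percentile and 0 at 3-fold, but 2 with the brightest RefSeq mRNA probe, 3 with the mean of all probes and 3 at 1.5-fold. The median change in Nr4a-TKO, -0.39, became -0.18 with the deposited values and -0.20 with scaling to the 75th percentile. Between the genotypes at 3 h, 0 genes were over 2-fold higher and 2 were at 1.5-fold, Stat3 and Stat4. For the lists of related genes, the mean of all probes was tried after seeing the data. Receptor chains that rose became 2 in WT and 1 in Nr4a-TKO in place of 0, cytokines that fell became 0 in each genotype in place of 1, Stat5-induced genes that fell became 1 in each in place of 2, and inhibitors that fell in Nr4a-TKO became 1 in place of 2. No scaling moved the median of all genes by over 0.065, but single members moved by more. With the deposited values the WT change was 0.56 for Stat5a in place of 0.31, -0.37 for Stat5b in place of -0.60 and 0.40 for Stat6 in place of 0.18. No paired analysis was possible because each group has 1 array and the replicate numbers were given in accession order. The arrays carry no measure of the spread between mice or cultures, which limits every difference given.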
